A study of Homo sapiens with 12 samples.

Results

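The 8 genes described here encode the subunits of human condensin I and condensin II. They were chosen by name, from 54127 Ensembl genes counted in the series, and because NCAPD3, which is also induced by androgen, was lower after CHKA knockdown. The difference between SiCHKA and SiNTCONTROL therefore chose them, and their levels, fold changes and calls are given as a description, with no p-value and nothing inferred from them. All 8 had 1 Ensembl identifier each in the files and were among the 14501 genes that passed the filter on low counts.

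RNA was sequenced from C4-2 cells, a castration-resistant prostate cancer line derived from LNCaP, in 12 samples. In the 6 SiCHKA samples the cells had received a pool of siRNAs against CHKA, the choline kinase alpha gene, and in the 6 SiNTCONTROL samples a nontargeting pool. Both groups were given 50 nM siRNA by reverse transfection with Lipofectamine RNAiMAX and were grown in RPMI with fetal bovine serum, so the controls carried the transfection and the serum androgens too. All samples came from 1 cell line and the knockdown from 1 siRNA pool, and the time from transfection to RNA extraction was not given in the sources used here.

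Condensins are ring-shaped ATPases that extrude loops of DNA and fold chromatin into rod-like chromosomes for mitosis. SMC2 and SMC4 form the core that both complexes share. Condensin I adds the kleisin NCAPH and the HEAT-repeat subunits NCAPD2 and NCAPG, and reaches chromosomes once the nuclear envelope has broken down. Condensin II adds NCAPH2, NCAPD3 and NCAPG2, stays in the nucleus through interphase and starts compaction in prophase. Transcripts of many subunits are known to peak late in the cell cycle, through promoter elements such as the cell cycle genes homology region (CHR) and the CCAAT box.

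The knockdown was checked first. CHKA ranged from 1.91 to 4.67 CPM (counts relative to library size, scaled by the TMM method) with a median of 2.31 in SiCHKA, and from 36.7 to 43.3 CPM with a median of 41.6 in SiNTCONTROL, so that no samples of the groups overlapped. Reads counted on genes came to 12158361 to 20670479 per SiCHKA sample and to 10685184 to 24246055 per SiNTCONTROL sample, so that 3 counts, the least taken as detection, correspond to 0.124 to 0.281 CPM. Each pair of samples within a group differed by more than counting noise. The SiCHKA samples formed 2 sets, since pairs across replicates 1, 3 and 5 and replicates 2, 4 and 6 had a chi-square per degree of freedom of 12.482 to 24.881 over genes, against 4.05 to 9.498 within the first set and 2.387 to 4.088 within the second. SiNTCONTROL pairs ranged from 2.512 to 30.942, and replicate 3 was in the most distant pair. No label explains either pattern, and the members' fold changes are also given without each SiCHKA set. Of 7 prostate epithelial markers, all were expressed. The summed leukocyte markers reached at most 0.784 CPM in any sample and the endothelial markers 3.65 CPM, with CD3E at 0 in all 12 samples. Of 6 fibroblast markers, LUM, DCN, COL1A2 and COL3A1 stayed below the filter. COL1A1 was at 26.8 ± 2.10 CPM (SD, n = 6) in SiCHKA and 15.0 ± 2.33 CPM (SD, n = 6) in SiNTCONTROL and was called higher, and PDGFRB was at 1.37 ± 0.472 and 3.74 ± 0.478 CPM and was called lower.

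NCAPD3 (ENSG00000151503) lies on the minus strand of chromosome 11 at chr11:134150113-134225504 in GRCh38. It has 2 start windows in RefSeq (GRCh38.p14), each running from 250 bases before to 50 bases after the start. The one at chr11:134223918-134224217 is shown because it held the largest variety of cell-cycle words among the condensin genes. It reads 5′ to 3′ along the gene, and capitals mark, in this order, an E2F word and 2 CCAAT boxes, all 3 on the opposite strand, and the CHR word at the start site.
NCAPD3: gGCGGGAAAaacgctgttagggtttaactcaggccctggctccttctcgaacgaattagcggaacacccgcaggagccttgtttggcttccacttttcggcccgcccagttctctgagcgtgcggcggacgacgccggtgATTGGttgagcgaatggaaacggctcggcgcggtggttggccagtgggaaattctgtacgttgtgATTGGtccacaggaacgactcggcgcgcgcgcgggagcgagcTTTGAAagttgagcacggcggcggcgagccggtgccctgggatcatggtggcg

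The CHR word was the feature that the annotated condensin promoters shared. The table of start windows held 7 of the 8 genes, in 10 windows. NCAPH2 had no entry. TTTGAA or TTTAAA, on either strand, was found in 7 of the 7 genes and in 7 of the 10 windows, against 27.9% of 27305 genes and 24.0% of 35116 windows of the same length. TTTGAA by itself was in 6 of the 7 genes and in 18.2% of all genes, NCAPH having TTTAAA. The 24 bases around each word are shown to compare what flanks it, 5′ to 3′ along the gene, with the word in capitals; TTCAAA is TTTGAA on the opposite strand.
SMC2: gcgccgaaaTTCAAAggaataaat
SMC4: gcactttttTTCAAAttagtggat
NCAPD2: ccgttgagaTTTGAActcggtatt
NCAPG: cgggaattaTTTGAAcgttcgagc
NCAPH: cgcgcgcgaTTTAAAaccagctca
NCAPD3: ggagcgagcTTTGAAagttgagca
NCAPG2: gcgggtgcgTTTGAAtctggtccg

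These stretches lie at chr9:104094297-104094320, chr3:160399566-160399589, chr12:6493948-6493971, chr4:17810935-17810958, chr2:96335789-96335812, chr11:134223956-134223979 and chr7:158704755-158704778, in the order shown. With the first transcribed base counted as 1, the word began 3 bases before the start in SMC2 and NCAPD3, 35 before in NCAPG, 75 before in SMC4 and 145 before in NCAPD2. In NCAPH and NCAPG2 it began inside the transcript, at base 33 and base 36. CCAAT was in 3 of the 7 genes (NCAPD2, NCAPH and NCAPD3) and in 39.7% of all genes. An E2F word (TTTCCCGC, TTTGGCGC, TTTCGCGC or TTTGCCGC) was in NCAPD3 only of the 7, against 3.99% of all genes. GGGCGG, the SP1 box, was in 5 of the 7 and in 48.3% of all genes. AGAACA, a hexamer of steroid hormone response elements, was in SMC2 only of the 7 and in 17.5% of all genes, so NCAPD3 had no such word within these windows. A match is a run of letters and was not tested as a binding site.

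**Figure D1:**
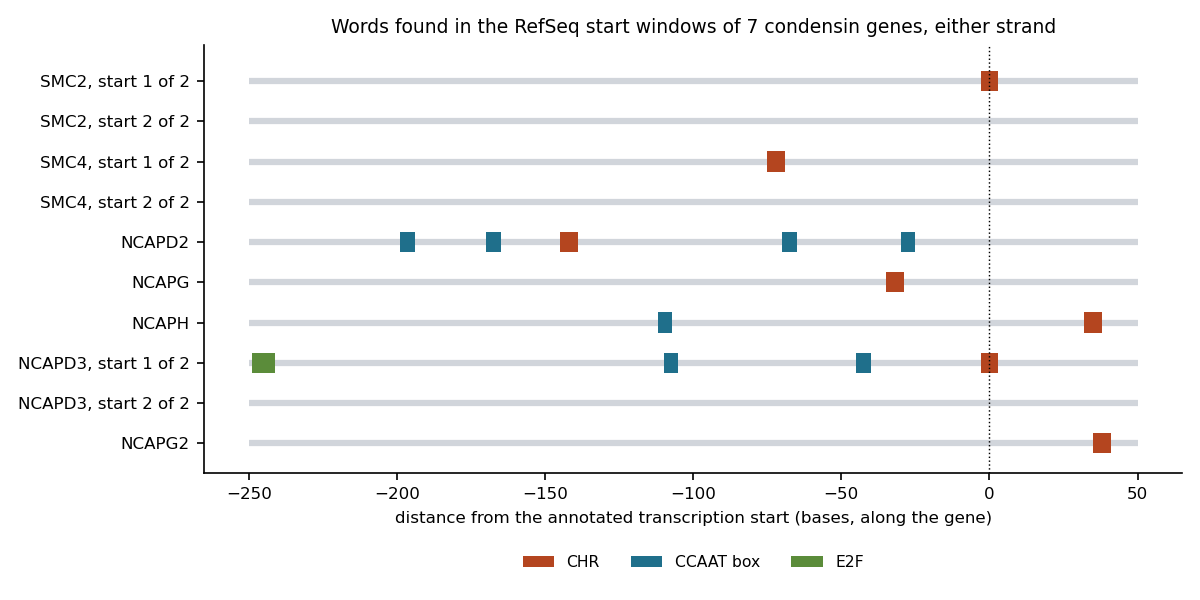
Positions of the CHR word, the CCAAT box and the E2F word in the 10 RefSeq start windows of 7 condensin genes, with the distance from the annotated start in bases on the x axis and 1 window per line. The CHR word appears in 1 window of each gene, and NCAPD3's first window is the only one with all 3 kinds.

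All 8 condensin transcripts were lower in SiCHKA, and in none of them did the 6 SiCHKA samples overlap the 6 SiNTCONTROL samples. The differences ran from about 1.89-fold for NCAPH2 to 3.79-fold for NCAPD3. Each of the 8 was called lower at an adjusted p below 0.05 in edgeR's quasi-likelihood test over 14501 genes. Over all tested genes 30.1% were called lower and 32.1% higher, 21.5% had all SiCHKA samples below all SiNTCONTROL samples and 19.1% had all above. Nothing is read from the members' count, since that contrast selected them. With at least a 2-fold change also asked for, 6 of the 8 were called lower, against 4.51% of all tested genes lower and 5.41% higher. In bulk RNA, fewer cells that carry a transcript and less of it per cell cannot be told apart.

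SMC2 and SMC4, the shared ATPase core, were both lower. SMC2 (ENSG00000136824) ranged from 46.7 to 61.5 CPM with a median of 54.6 in SiCHKA, and from 148 to 180 CPM with a median of 166 in SiNTCONTROL. Its log2 fold change was -1.61 (SE 0.0752). Within SiCHKA, replicates 1, 3 and 5 lay at 57.8 to 61.5 CPM, all above the 46.7 to 51.3 CPM of replicates 2, 4 and 6, and the log2 fold change was -1.76 without the first set and -1.47 without the second. SMC4 (ENSG00000113810) was the most even of the 8 in SiCHKA, at 183 to 198 CPM with a median of 188, and had 430 to 510 CPM with a median of 477 in SiNTCONTROL. Its log2 fold change of -1.32 (SE 0.0526) became -1.35 or -1.30 without either set.

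The 3 subunits of condensin I were lower by 2.50-fold (NCAPG) to 3.21-fold (NCAPH). NCAPD2 (ENSG00000010292), a HEAT-repeat subunit that helps load the complex, ranged from 136 to 172 CPM with a median of 153 in SiCHKA and from 382 to 433 CPM with a median of 407 in SiNTCONTROL, with a log2 fold change of -1.42 (SE 0.0628). It split by set as SMC2 did, with 157 to 172 CPM in replicates 1, 3 and 5 and 136 to 149 CPM in replicates 2, 4 and 6, and its log2 fold change was -1.54 without the first set and -1.31 without the second. NCAPG (ENSG00000109805), the other HEAT-repeat subunit, ranged from 37.5 to 48.9 CPM with a median of 43.3 in SiCHKA and from 104 to 116 CPM with a median of 108 in SiNTCONTROL, with a log2 fold change of -1.32 (SE 0.0569), or -1.41 and -1.24 without the first and the second set. NCAPH (ENSG00000121152) is the kleisin that closes the ring between the SMC heads, and had the largest difference of the 3. It ranged from 29.9 to 35.4 CPM with a median of 33.9 in SiCHKA and from 99.3 to 112 CPM with a median of 108 in SiNTCONTROL, with a log2 fold change of -1.68 (SE 0.0516), or -1.75 and -1.62 without the first and the second set.

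Within condensin II, NCAPD3 stood apart from its 2 partners. NCAPD3, the HEAT-repeat subunit needed for condensin II to act on chromosomes, ranged from 53.2 to 67.1 CPM with a median of 60.5 in SiCHKA and from 215 to 249 CPM with a median of 227 in SiNTCONTROL. It kept 26.4% of the SiNTCONTROL mean, with a log2 fold change of -1.92 (SE 0.0582), and 0.469% of the tested genes had a more negative one. These values rest on 717 to 1388 reads per SiCHKA sample and 2358 to 5229 reads per SiNTCONTROL sample. Unlike SMC2 and NCAPD2, it did not divide by set, since replicates 1, 3 and 5 covered 53.2 to 63.1 CPM and replicates 2, 4 and 6 covered 60.1 to 67.1 CPM. Without either set its log2 fold change was -1.87 or -1.97.

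NCAPG2 and NCAPH2, the other condensin II subunits, had the smallest differences of the 8. NCAPG2 (ENSG00000146918), a HEAT-repeat subunit, ranged from 92.9 to 112 CPM with a median of 103 in SiCHKA and from 186 to 219 CPM with a median of 207 in SiNTCONTROL, with a log2 fold change of -0.996 (SE 0.0590). Its SiCHKA values also lay in 2 sets, at 105 to 112 CPM in replicates 1, 3 and 5 and 92.9 to 101 CPM in the others, and its log2 fold change was -1.09 without the first set and -0.91 without the second. NCAPH2 (ENSG00000025770), the kleisin of condensin II, ranged from 27.4 to 30.7 CPM with a median of 28.6 in SiCHKA and from 47.5 to 61.1 CPM with a median of 55.1 in SiNTCONTROL, with a log2 fold change of -0.92 (SE 0.0622), or -0.88 and -0.97 without the first and the second set. The median log2 fold change of the 8 was -1.37 with all samples, -1.48 without replicates 1, 3 and 5 and -1.30 without replicates 2, 4 and 6.

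**Figure D2:**
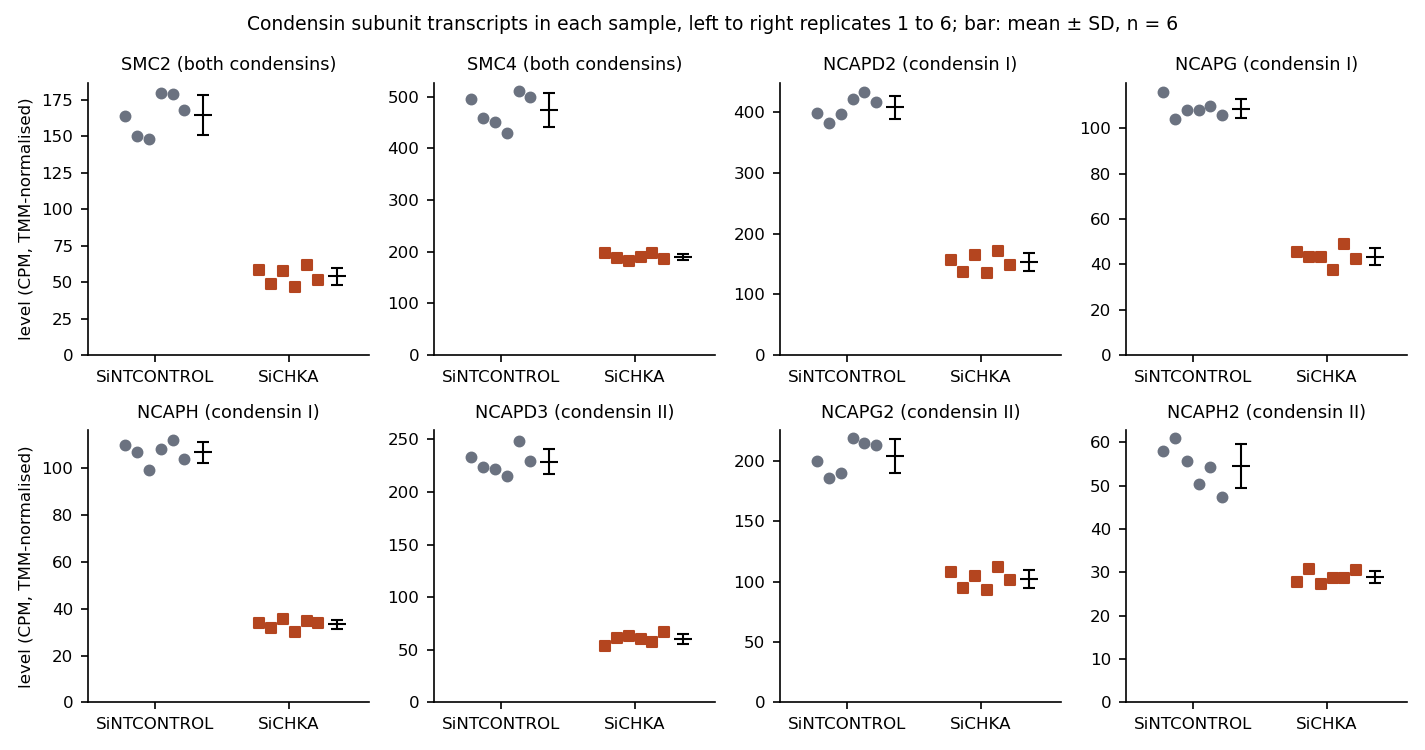
Level of each condensin transcript in CPM (TMM-normalised, y axes from 0) in the 6 SiNTCONTROL samples (circles) and 6 SiCHKA samples (squares), replicates 1 to 6 from left to right, with mean ± SD beside them. No SiCHKA sample reaches the lowest SiNTCONTROL sample for any of the 8 genes, and NCAPD3 has the widest gap, from 67.1 to 215 CPM, in proportion to its level.

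Scaling by library size alone moved the median log2 fold change of all tested genes from 0.04 to 0.19 and the numbers of genes called from 4371 lower and 4650 higher to 2995 lower and 6666 higher. NCAPD3 then had a log2 fold change of -1.77 and NCAPH2 of -0.76, with all 8 members still called lower. Relative to the median of all tested genes, NCAPD3 was at -1.95 under both scalings and NCAPH2 at -0.95 under both.

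Ratios between subunits in the same sample do not depend on the scaling, and they show how unequal the differences were. The ratio of NCAPD3 to NCAPD2, its counterpart in condensin I, was 0.337 to 0.451 in SiCHKA (median 0.412) and 0.510 to 0.585 in SiNTCONTROL (median 0.567). The other 2 counterpart ratios went the opposite way, being higher in SiCHKA. NCAPG2 to NCAPG was 2.20 to 2.48 in SiCHKA (median 2.38) against 1.72 to 2.03 (median 1.87), and NCAPH2 to NCAPH was 0.775 to 0.967 (median 0.860) against 0.456 to 0.571 (median 0.507). None of these groups overlapped, and the ratios are of reads, not of molecules, since the transcripts differ in length.

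Inside condensin II, NCAPD3 was lower relative to its partners as well. It was chosen for its steep fall, so each ratio or share that includes it reflects that choice and is a description only. NCAPD3 to NCAPG2 was 0.495 to 0.663 in SiCHKA (median 0.621) and 0.982 to 1.20 in SiNTCONTROL (median 1.16). NCAPD3 to NCAPH2 was 1.92 to 2.30 in SiCHKA (median 2.06) and 3.66 to 4.83 in SiNTCONTROL (median 4.14). NCAPD3 thus supplied 28.2% to 33.8% of the summed CPM of the 3 condensin II subunits in SiCHKA and 44.4% to 48.0% in SiNTCONTROL. The SiCHKA sets differed here too, with NCAPD3 to NCAPD2 at 0.337 to 0.383 in replicates 1, 3 and 5 and 0.442 to 0.451 in replicates 2, 4 and 6, both below every SiNTCONTROL sample. SMC4 to SMC2, the core pair, was 3.16 to 4.04 in SiCHKA (median 3.49) and 2.39 to 3.07 in SiNTCONTROL (median 3.00).

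Summed over subunits, the complexes were alike. The 3 condensin I subunits came to 203 to 255 CPM in SiCHKA and 594 to 654 CPM in SiNTCONTROL, which leaves 36.8%. The 3 condensin II subunits came to 182 to 199 CPM and 467 to 518 CPM, which leaves 39.3%, and the SMC pair kept 38.2%. Without NCAPD3 the condensin II sum was 122 to 140 CPM in SiCHKA and 245 to 269 CPM in SiNTCONTROL, leaving 50.8%. NCAPD3 was chosen for its steep fall, so nothing is inferred from the nearness of the 2 complexes' sums.

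**Figure D3:**
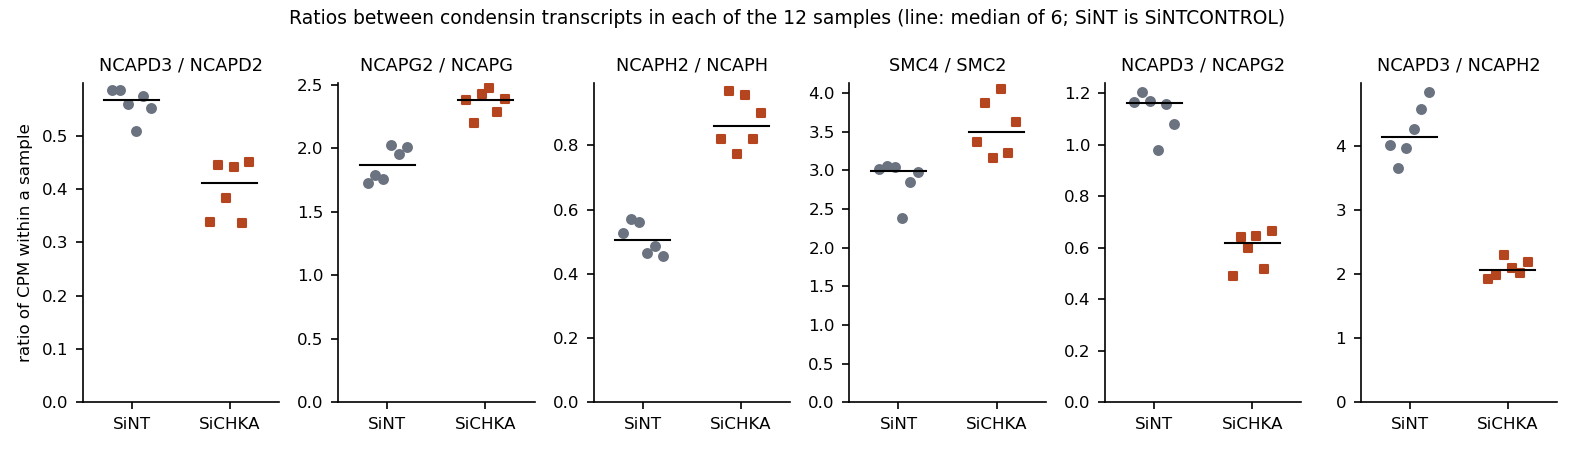
Ratio of CPM between pairs of condensin transcripts within each of the 12 samples (y axes from 0, line at the median of 6; circles SiNTCONTROL, squares SiCHKA). NCAPD3 is lower relative to NCAPD2, NCAPG2 and NCAPH2 in every SiCHKA sample, whereas NCAPG2 to NCAPG, NCAPH2 to NCAPH and SMC4 to SMC2 are higher. Since NCAPD3 was chosen for its steep fall, nothing is inferred from its ratios.

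Levels between genes were compared per kilobase of transcript, in SiNTCONTROL. By the union of all annotated exons the order was NCAPD2 (63.1 ± 2.90 CPM per kilobase, SD, n = 6), SMC4 (58.1 ± 3.94), NCAPG2 (28.7 ± 1.95), SMC2 (25.5 ± 2.14), NCAPG (22.4 ± 0.877), NCAPH (16.3 ± 0.686), NCAPH2 (12.2 ± 1.11) and NCAPD3 (12.2 ± 0.626). The ranges over samples overlapped between NCAPD2 and SMC4, between NCAPG2 and SMC2, between SMC2 and NCAPG, and between NCAPH2 and NCAPD3, while the other neighbours were apart. Compared sample by sample, NCAPD2 was above SMC4, NCAPG2 above SMC2 and SMC2 above NCAPG in 6 of 6 samples, and NCAPH2 was above NCAPD3 in 3 of 6. These lengths came from GENCODE, whereas the reads were counted on the older Ensembl gene models of the study. Whether the counts covered all the exons in these lengths was not tested. The order depends on the length taken. SMC4 was above NCAPD2 by the longest transcript (88.5 against 84.6 CPM per kilobase) and by the MANE Select transcript (92.7 against 84.6), in 5 of 6 samples each. NCAPD3 moved furthest, because its union of exons covers 18698 bases, its longest transcript 10474 and its MANE Select transcript 7369. It was at 12.2 CPM per kilobase and in place 8 by the union, at 21.8 and in place 6 by the longest transcript, and at 31.0 and in place 4 by the MANE Select transcript. In SiCHKA it was in place 8 by the union and in place 7 by the other lengths.

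The genes around the members give the local background of the counts. Of 22 tested genes that overlap a member or lie nearest to it, 7 were called lower, 8 higher and 7 were not called, against 30.1% lower and 32.1% higher over all tested genes. JAM3, an adhesion molecule, and VPS26B, a retromer subunit, overlap NCAPD3 on the opposite strand, and reads falling on both genes of such a pair were left out of the counts. JAM3 fell from 6.53 ± 0.654 to 3.37 ± 0.452 CPM (SD, n = 6; log2 fold change -0.94, SE 0.108) and VPS26B rose from 103 ± 4.66 to 125 ± 11.0 CPM (log2 fold change 0.28, SE 0.0586), both called by edgeR. The nearest tested genes on either side of NCAPD3 were IGSF9B, called higher at a log2 fold change of 0.99 (SE 0.168), and THYN1, not called at -0.08 (SE 0.0872). DCAF16 lies 221 bases from NCAPG and had a log2 fold change of -0.00 (SE 0.0452), also not called. MRPL51, which overlaps NCAPD2, and LCORL, which overlaps NCAPG, were not called either, at -0.05 and 0.07. IFT80 and TRIM59 overlap SMC4 and both fell, with log2 fold changes of -0.68 (SE 0.0879) and -0.95 (SE 0.0491). GAPDH, 2557 bases from NCAPD2, fell by 0.26 on the log2 scale and PACRGL, 2851417 bases from NCAPG, by 0.42. PTPRN2, 43346 bases from NCAPG2, rose by 0.56 and NIPSNAP3A, 606264 bases from SMC2, by 0.48. The nearest tested gene was thus not always close.

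Other complexes of the SMC family did not show one common pattern. Of 17 cohesin genes, which hold sister chromatids together, 12 were called lower and 1 higher, against 30.1% lower and 32.1% higher over all tested genes. Their median log2 fold change was -0.51, against 0.04 over all tested genes and -1.37 over the 8 condensin genes, which this contrast selected. The cohesin median was -0.63 without SiCHKA replicates 1, 3 and 5 and -0.34 without replicates 2, 4 and 6. The largest falls were in genes that act on cohesin in the cell cycle. CDCA5 (sororin, which protects cohesion) had a log2 fold change of -2.35, ESPL1 (separase, which cuts cohesin) -1.45 and ESCO2 (an acetyltransferase of replication) -1.33. The ring itself changed less, with SMC1A at -0.52, SMC3 at -0.51 and RAD21 at -0.70. STAG2, a cohesin subunit, was not called at -0.12 (SE 0.0802), but was called lower without SiCHKA replicates 1, 3 and 5, at -0.27. ESCO1 was the 1 cohesin gene called higher, at 0.14 (SE 0.0452).

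In the SMC5-SMC6 complex, which acts in DNA repair, 3 of 6 genes were called lower and 2 higher, beside 30.1% and 32.1% of all tested genes, with a median of -0.12. SMC6 fell by 0.45 and SMC5 by 0.36 on the log2 scale, while the ubiquitin ligase subunit NSMCE1 rose by 0.39 and the SUMO ligase subunit NSMCE2 by 0.28. NSMCE4A, at -0.39, was called with all samples, but not without SiCHKA replicates 1, 3 and 5 (-0.19) or under library-size scaling (-0.23). The list median turned to 0.03 under that scaling, where the median of all genes was 0.19.

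Of 7 genes that regulate condensin, 6 were called lower, against 30.1% lower and 32.1% higher over all tested genes. Their median log2 fold change was -1.30. AURKB, the kinase that helps condensin I onto chromosomes, had -2.18, PLK1, which phosphorylates condensin II, -1.53, and CCNB1, the cyclin partner of CDK1, -1.42. MCPH1, an inhibitor of condensin II, was not called at 0.04 (SE 0.0612), but was called higher without SiCHKA replicates 2, 4 and 6 (0.15) and under library-size scaling (0.19). CSNK2A1, the casein kinase subunit, was called at -0.28 and was not called under library-size scaling, at -0.13. Of 7 genes for partners on the mitotic chromosome, 6 were called lower, with a median of -1.31, beside the same 30.1% lower and 32.1% higher. Among them were BIRC5 (survivin, at -1.81), TOP2A (topoisomerase II alpha, at -1.51) and MKI67 (Ki-67, at -1.32). TOP2B, the topoisomerase that non-dividing cells also use, was not called at -0.18 (SE 0.110), but was called lower without SiCHKA replicates 1, 3 and 5, at -0.45.

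Proliferation markers were lower in SiCHKA as well. All 12 were called lower, against 30.1% lower and 32.1% higher over all tested genes. The median was -1.53, with a range of -2.62 to -0.77. Their summed level was 830 to 966 CPM in SiCHKA and 2490 to 2760 CPM in SiNTCONTROL. RRM2, a ribonucleotide reductase subunit, had the largest fall of the list at -2.62, followed by CCNB2 at -2.06 and MYBL2 at -2.03. The part of cell cycle distribution in the condensin values was not tested.

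Of 12 androgen-induced genes, 9 were called lower and 1 higher, against 30.1% and 32.1% of all tested genes, with a median of -0.47. TPD52 (-1.71), TMPRSS2 (-1.27) and KLK2 (-1.22) had the largest falls. NCAPD3 had a lower log2 fold change than each of the 12, but it was chosen for its steep fall, so nothing is inferred from this. KLK2 moved with the SiCHKA sets, at -0.87 without replicates 1, 3 and 5 and -1.68 without replicates 2, 4 and 6. TPD52 moved less, at -1.61 and -1.83, and NCAPD3 was at -1.87 and -1.97. The SiCHKA values of SLC45A3, HERC3 and ABCC4 did not divide by set either, whereas those of the other genes of the list did.

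Among 9508 genes with at least 10 CPM in SiNTCONTROL, those whose profile over the 12 samples was nearest to that of NCAPD3 were HJURP (root mean square difference 0.0638 on the log2 scale), KANK2 (0.0653), NEMP1 (0.0874), TAF13 (0.101) and UBE2C (0.102), each profile being centred on its own SiNTCONTROL mean. So centred, the distance is mostly the gap in the fold change that chose NCAPD3, and the 5 had log2 fold changes of -1.93 to -2.01, so it is a description only. HJURP is the chaperone that deposits CENP-A at centromeres, NEMP1 is a protein of the nuclear envelope, TAF13 is a subunit of TFIID, and UBE2C is a ubiquitin-conjugating enzyme of the anaphase-promoting complex. HJURP was at 26.8 CPM in SiCHKA and 102 CPM in SiNTCONTROL, and KANK2, a cytoskeletal adaptor, at 22.2 and 88.5 CPM. The nearest condensin gene was NCAPH, in place 46 (0.198), followed by SMC2 in place 99. NCAPG2 and NCAPH2, the partners of NCAPD3 in condensin II, were in places 517 and 630.

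The 3′ UTRs of the members were searched for 2 words of 7 bases, GCCAGAT and TGCCCTT, which an earlier search of these data had picked out and which therefore add no independent evidence. In the MANE Select transcripts NCAPD3 had GCCAGAT 1 time and NCAPH had TGCCCTT 2 times, and the other 6 members had neither. The NCAPD3 site at chr11:134152722-134152748 and the NCAPH sites at chr2:96373725-96373751 and chr2:96375465-96375491 (GRCh38) are shown 5′ to 3′ along the gene with the word in capitals.
NCAPD3: atagagatgtGCCAGATttagattttc
NCAPH, first site: cacttaatggTGCCCTTgaagaacttc
NCAPH, second site: tcgttcctctTGCCCTTctgccatgta

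Over 12222 tested genes, 23.7% had at least 1 of the words. The genes with a word had longer 3′ UTRs, with a median of 2933 bases against 994, and those of NCAPD3 and NCAPH are 2831 and 3740 bases long. The siRNA sequences were not given in the sources used here, and the part of the words or of UTR length in the values of NCAPD3 and NCAPH was not tested.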

How the data were processed

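The study sequenced TruSeq RNA libraries as single-end reads of 40 bases, aligned them to GRCh37 (Ensembl release 64) with TopHat2 2.0.4 and counted reads per gene with HTSeq 0.5.3p9, and the authors deposited raw counts, 4 files per sample, with no normalization. DESeq 1.10.1 is also named in the submitters' processing notes. The labels speak of total RNA from flow-sorted cells, with no gate given. Reads on no gene (3.95% to 5.97% of all tallied) and on overlapping genes (2.82% to 2.93%) were left out of library sizes and tests. So were alignments that were not unique (26.06% to 30.56%). That tally counts alignments, of which a read can have several, so these percentages are not shares of reads. Counting with no stated strand leaves antisense reads unseparated.

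Here the 4 files of a sample, which agreed within sampling noise (chi-square per degree of freedom 0.986 to 1.0128), were summed. Groups and replicate numbers came from the labels, which name no separate cultures, whereas the paper speaks of biological replicates, in numbers that differ between panels, and p-values measure the spread between these samples. The fit was edgeR 4.0.16 in R 4.3.3 (filterByExpr, TMM, quasi-likelihood test, no covariate), with Benjamini-Hochberg adjusted p below 0.05 over 14501 genes as a call. The standard error is the absolute log2 fold change over the root of F. The calls and fold changes, but not this error, were tested on simulated data. The simulation had equal dispersion for all genes, few changed genes and no sets within SiCHKA. It therefore does not cover the sets or the large share of genes called in these data. CPM are TMM-scaled, and log2 CPM used a prior count of 2. GENCODE 44 gave symbols, neighbours and transcripts by Ensembl identifier (82.8% of identifiers, 98.38% of reads), and coordinates are GRCh38, not the build of the files. PECAM1 had no unique identifier. Start windows came from RefSeq. The 3 counts behind the detection floor cover counting error only.

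The members and lists were chosen with earlier results of these data known. Named genes are the members, CHKA, in each list up to 3 called falls and 3 called rises, the largest among genes averaging 10 CPM or more, genes overlapping or next to a member, and the 5 profiles nearest to NCAPD3. Other list genes, such as STAG2, MCPH1, TOP2B, CSNK2A1 and the cohesin ring, were named after their values were seen. Some results under this rule are not reported here. Alternatives were RLE, library-size scaling, DESeq2 1.42.0, 2 other filters, a replicate block, samples left out, 1 file per sample, a 2-fold minimum and other gene lengths.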

Additional observations from a re-analysis of the deposited data

How the results depend on the processing

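All 8 condensin genes were called lower under each alternative except the 2-fold minimum, which left 6, and none was called higher under any. Leaving out each sample in turn gave 8 to 8 members called lower and 0 to 0 higher, 4221 to 4402 genes called lower and 4435 to 4596 higher, and a NCAPD3 log2 fold change of -1.95 to -1.89. Over all alternatives NCAPD3 ranged from -1.97 to -1.77, SMC2 from -1.76 to -1.46 and CHKA from -4.27 to -3.59. Under library-size scaling the SMC5-SMC6 median turned to 0.028, and the genes called higher were 2 for cohesin, 1 for the condensin regulators and 2 for the androgen-induced list. Without an expression filter 0 cohesin genes were called higher. Without SiCHKA replicates 1, 3 and 5, 2 androgen-induced genes were called higher, and without replicates 2, 4 and 6, 1 condensin regulator. The 2-fold minimum left 654 genes lower and 785 higher, 4 cohesin genes lower and 0 higher, 0 of SMC5-SMC6 lower and 0 higher, and 3 androgen-induced genes lower and 0 higher; fewer calls follow from its construction, and for the other changes the cause was not tested. In a fit with a replicate block, 4273 genes were called lower and 4494 higher, 8 members were called lower, and NCAPD3 was at -1.92. Between same-numbered samples, deviations of log2 CPM from the group's own mean over all tested genes had correlations from -0.396 to 0.321. By these deviations 0 of 6 correlated best with their own number, so the numbers were not taken as a pairing.

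Per kilobase of the longest transcript, levels in SiNTCONTROL were 88.5 for SMC4 and 38.8 for NCAPG2. By MANE Select length, an alternative chosen after seeing the data, they were 92.7 and 50.3. With 355 reads or more on every member in every sample, depth did not limit the members' values, whereas most leukocyte and endothelial markers were at or near the 3-count floor.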
